A study of Mus musculus with 22 samples.

Results

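The alarmins and the IL-1 family were read gene by gene in sorted lung epithelial cells (ECs). The set holds 10 genes, chosen by name: the cytokines Il33, Tslp, Il1a, Il1b, Il18 and Csf2, the antagonist Il1rn, and the receptor chains Il1r1, Il1rap and Il1rl1. All 10 were found by Ensembl identifier in both deposited count tables, among the 54373 genes listed there. RNA was sequenced from ECs of WT mice and of mice labelled AhR-KO or CYP1B1-KO, lines kept on the C57BL/6 background. The mice were either naive (4 WT, 3 AhR-KO and 3 CYP1B1-KO libraries) or exposed to house dust mite extract, HDM (4 libraries of each genotype). In the protocol of the study, HDM mice were sensitized intranasally, challenged intranasally on 4 days in a row, and killed days after the last challenge. In both knockouts the loss is in the whole animal rather than in ECs alone. The ECs were live CD45-EpCAM+ cells, which the study also describes as CD31-, sorted by flow cytometry from enzymatically digested lungs, and their cDNA was amplified from polyadenylated RNA before sequencing. Neither the age nor the sex of the mice is given per library. Nothing in the labels says whether libraries of 1 group came from separate animals, so the p-values measure only the spread between these libraries.

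Alarmins are cytokines that barrier cells hold or make on demand and release when they are stressed or damaged. In the lung, IL-33, TSLP and GM-CSF (encoded by Csf2) act on dendritic cells, mast cells and type 2 innate lymphoid cells, and so start type 2 responses to allergens such as house dust mite. IL-1α, IL-1β and IL-18 belong to the same structural family as IL-33; IL-1β and IL-18 are made as precursors that caspase-1 cleaves. IL-33 binds ST2 (encoded by Il1rl1) and IL-1α and IL-1β bind IL-1R1 (encoded by Il1r1), both receptors pair with the accessory chain IL-1RAcP (encoded by Il1rap), and the antagonist encoded by Il1rn occupies IL-1R1 without signalling.

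Libraries differed in depth, in dominant predicted genes and in Y-linked reads. Total counts ran from 10476829 to 17707000 in the naive libraries and from 9654825 to 17878442 after HDM, but a single predicted gene, Gm10800, took 9.54% to 29.2% of them in the naive and 0.0082% to 71.9% in the HDM libraries. Once such dominant predicted genes were set aside, a naive library had 7218689 to 14120921 counts of protein-coding genes and an HDM library 1180756 to 16447855, with 5 HDM libraries below 3e+06 (AhR-KO 3 and 4, CYP1B1-KO 1 and 2, and WT 2). The deposited tables of the naive and the HDM libraries are named as separate runs, so that the state and the run cannot be told apart. Reads of the Y-linked gene Ddx3y were present in all naive libraries, at 0 CPM (CPM being counts scaled to the TMM-normalized library size of the protein-coding genes) in the WT and CYP1B1-KO HDM libraries, and at 1 count each in AhR-KO HDM replicates 1 and 2 but at 67.3 and 69.6 CPM in replicates 3 and 4, the libraries with Y-linked reads below. In WT and CYP1B1-KO the Y-linked reads therefore separated the states, and in AhR-KO they did so in part. Ahr was not lower in the libraries labelled AhR-KO (21.8 ± 6.04 CPM after HDM, against 15.3 ± 4.67 in WT; SD, n = 4 each), and Cyp1b1 was higher in those labelled CYP1B1-KO (8.04 ± 4.01 against 1.79 ± 0.664 CPM). Which part of each gene is deleted is not given in the sources used here, so counts summed over all exons do not check the labels, and every genotype below is the genotype on the label. Epcam was counted in every group, at means of 105.7 to 205.5 CPM.

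The AhR is a transcription factor whose dimer binds DNA at a GCGTG core, so the sequences upstream of the genes were read for it. Start sites were taken from RefSeq on GRCm38.p6, in windows of 250 bases before to 50 after each start; 9 of the 10 genes had an entry, with 14 windows between them. The AhR core was found on either strand in 5 of the 14 windows and in 4 genes (Il1rn, Il1r1, Il1rap and Il1rl1), and 32.4% of the 32851 windows of this length in the table hold it. The AP-1 motif TGANTCA was found in 2 windows, 12 to 6 bases before the start of Il1a and overlapping the AhR core of Il1rn (7.81% of all windows hold it), and the NF-kappaB consensus in 1 window of Il1r1 (8.46%). The 250 upstream bases are printed for the ligand Il33 and for both chains of its receptor, because Il1rl1 was the member that differed between AhR-KO and WT; all are on the plus strand, 5′ to 3′, with the AhR core in capitals (CACGC where it lies on the minus strand).

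Il33, first start, chr19:29924863-29925112: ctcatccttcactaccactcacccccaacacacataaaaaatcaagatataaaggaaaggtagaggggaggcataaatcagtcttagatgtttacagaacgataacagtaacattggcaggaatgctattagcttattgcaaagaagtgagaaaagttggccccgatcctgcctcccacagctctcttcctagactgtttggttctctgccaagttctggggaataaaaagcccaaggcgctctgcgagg

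Il1rl1, first start, chr1:40429320-40429569: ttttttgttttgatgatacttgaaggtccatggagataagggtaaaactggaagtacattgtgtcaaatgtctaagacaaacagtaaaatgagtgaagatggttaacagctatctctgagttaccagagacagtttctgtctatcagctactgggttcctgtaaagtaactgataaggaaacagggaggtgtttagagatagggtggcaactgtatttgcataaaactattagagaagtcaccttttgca

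Il1rl1, second start, chr1:40439379-40439628: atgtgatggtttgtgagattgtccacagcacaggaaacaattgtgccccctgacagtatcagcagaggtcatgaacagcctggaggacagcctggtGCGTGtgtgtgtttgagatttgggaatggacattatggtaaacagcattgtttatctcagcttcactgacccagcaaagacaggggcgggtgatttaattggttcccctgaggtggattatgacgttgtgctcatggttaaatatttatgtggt

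Il1rap, chr16:26581455-26581704: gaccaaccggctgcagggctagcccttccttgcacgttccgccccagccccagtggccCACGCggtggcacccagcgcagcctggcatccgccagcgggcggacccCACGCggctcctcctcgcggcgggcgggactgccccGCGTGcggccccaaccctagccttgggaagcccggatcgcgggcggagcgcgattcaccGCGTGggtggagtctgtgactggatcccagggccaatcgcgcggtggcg

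Neither the printed Il33 window nor that of its second start, which is not printed, held an AhR core. The first Il1rl1 window held none, the second Il1rl1 window held 1, at 154 to 150 bases before the start, and the Il1rap window held 4. A match in these letters is a description and not a binding site.

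At steady state, the genes with the highest levels in WT ECs were the receptor Il1r1 and the alarmin Il33. Per kilobase of exon, which allows genes to be compared, Il1r1 stood at 5.91 ± 2.27 CPM per kb and Il33 at 5.69 ± 3.24 (SD, n = 4), a difference within their spread. Il18 followed at 1.75 ± 0.589 CPM per kb, lower than Il33 by more than the larger of their SDs, and the other 7 genes were below it, each within the spread of its neighbour, down to Il1a at 0.214 ± 0.246. After HDM, Il33 led in WT with 64.9 ± 38.2 CPM per kb, ahead of Il1b at 13.4 ± 8.05 and Il18 at 6.02, while Il1r1 was at 2.07 and Tslp came last at 0.118. The plot of the 10 transcripts by library shows these levels per group before scaling by length.

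**Figure D1:**
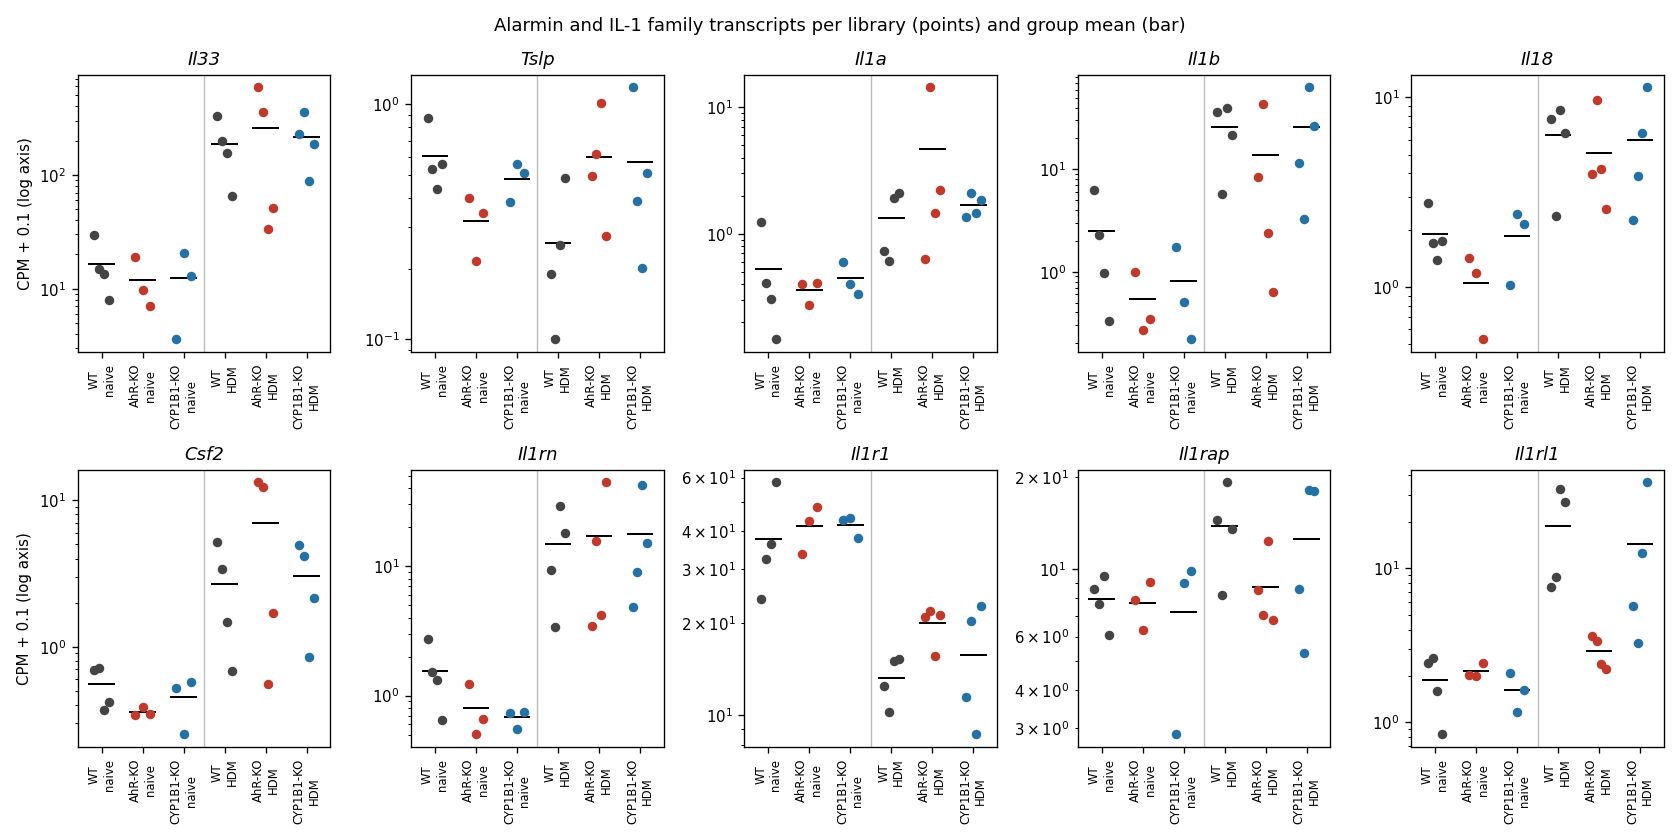
CPM + 0.1 (log axis) of the 10 alarmin and IL-1 family transcripts in each of the 22 libraries, by genotype and state; points are libraries in replicate order, bars are group means. Il33 lies at 3.47 to 29.7 CPM in all naive libraries and at 33.7 to 589 after HDM, whereas Il1r1 lies at 24.0 to 57.8 in the naive libraries and at 8.56 to 22.6 after HDM.

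HDM libraries were first compared to naive libraries within each genotype, as the alarmins are read as the response of ECs to the allergen. Of the 7 genes that passed the filter on low counts within each table, 6 were called in WT (adjusted p at most 0.05, quasi-likelihood test of edgeR), 5 higher and Il1r1 lower after HDM, where 38.4% of all genes tested were called. In AhR-KO 5 of the 7 were called against 20.6% of all genes, and in CYP1B1-KO 6 against 33.4%. Il33, Il1b, Il18 and Il1rn were called higher and Il1r1 lower in each genotype, and Il1rl1 was called higher in WT and CYP1B1-KO. Csf2 and Il1a passed the filter through their HDM libraries, with at most 19 counts in a naive library, so their changes from naive to HDM are given as descriptions with no test. Without naive AhR-KO replicate 3 or 4 the AhR-KO count was 3 and 2 (9.98% and 8.93% of all genes). As state and run coincide, and Y-linked reads separate the states in WT and CYP1B1-KO, a difference between the states cannot be told apart from one between the runs or, in those genotypes, between the sexes of the mice.

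Il33 (ENSMUSG00000024810, GRCm38 chr19:29925114-29960718, plus strand) encodes the alarmin that signals through ST2. The naive WT libraries held 29.7, 14.9, 13.3 and 7.78 CPM and the WT HDM libraries 330, 200, 155 and 65.1. In AhR-KO the naive libraries held 19.0, 9.54 and 6.95 CPM and the HDM libraries 589, 355, 33.7 and 51.2, and in CYP1B1-KO the values were 3.47, 20.5 and 12.9 and then 227, 359, 89.2 and 187. Every HDM library was above every naive library of its genotype, which 38.9% of all genes tested shared in either direction in WT, 35.9% in AhR-KO and 31.5% in CYP1B1-KO. The log2 fold change was 3.51 ± 0.79 (SE; adjusted p = 0.0013) in WT, 4.44 ± 0.94 (adjusted p = 0.00312) in AhR-KO and 4.13 ± 0.92 (adjusted p = 0.00135) in CYP1B1-KO by edgeR. Within the HDM groups Il33 varied widely, from 33.7 to 589 CPM in AhR-KO alone. The AhR-KO values of 33.7 and 51.2 came from replicates 3 and 4, which are shallow and hold Y-linked reads.

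Csf2 (ENSMUSG00000018916, chr11:54247271-54249667, minus strand), which encodes the growth factor GM-CSF, was close to the limit of detection in naive ECs. It was counted 3 to 10 times per naive library, and its CPM in WT were 0.597, 0.617, 0.271 and 0.322. After HDM the WT libraries held 5.11, 3.30, 1.37 and 0.577 CPM, those of AhR-KO 13.2, 12.3, 0.455 and 1.59, and those of CYP1B1-KO 4.87, 4.03, 0.755 and 2.05. The highest HDM values were in 2 AhR-KO libraries, and the WT groups overlapped. Replicates 3 and 4 of AhR-KO, at 0.455 and 1.59 CPM, are the shallow libraries with Y-linked reads. The fitted log2 fold change, given as a description, was 2.51 ± 0.78 (SE) in WT, 4.78 ± 0.95 in AhR-KO and 2.97 ± 0.91 in CYP1B1-KO. It was 1.79 in WT without the first HDM library, and 1.84 in CYP1B1-KO without the shallow libraries.

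Tslp (ENSMUSG00000024379, chromosome 18, 32815383 to 32819797, plus strand), the third classical epithelial alarmin, was counted 0 to 13 times per library and did not pass the filter in any fit. Its group means lay between 0.157 and 0.502 CPM in both states. The single library at 0, the second WT HDM library, was shallow, and 3 counts there correspond to 0.761 CPM. The naive WT libraries held 0.339 to 0.776 CPM of Tslp and the WT HDM libraries 0 to 0.385, and no difference in Tslp was tested.

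Il1b and Il1a sit side by side on chromosome 2 and encode the ligands of IL-1R1. Il1b (ENSMUSG00000027398, chr2:129364570-129371139, minus strand) was at 6.21, 2.16, 0.880 and 0.230 CPM in the naive WT libraries and at 35.7, 5.58, 39.3 and 21.5 after HDM. In AhR-KO, Il1b went from 0.898, 0.172 and 0.246 CPM to 8.38, 43.2, 2.27 and 0.530, with the lowest HDM library among the naive values. In CYP1B1-KO, it went from 1.63, 0.406 and 0.118 to 11.4, 3.17, 62.9 and 26.6 CPM. The states overlapped in WT and AhR-KO and did not in CYP1B1-KO. The log2 fold changes of Il1b were 3.44 ± 1.07 (adjusted p = 0.0144), 4.99 ± 1.39 (adjusted p = 0.015) and 5.25 ± 1.37 (adjusted p = 0.00462) in WT, AhR-KO and CYP1B1-KO by edgeR. In AhR-KO the call was lost without the second HDM library (log2 fold change 3.32, adjusted p = 0.0686) without naive replicate 3 or 4 (4.60 and 4.71, adjusted p = 0.079 and 0.0797) and under voom (2.67, adjusted p = 0.144).

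Il1a (ENSMUSG00000027399, chr2:129299610-129309972, minus strand) was rare. Its group means were 0.260 to 0.423 CPM in the naive and 1.24 to 4.57 in the HDM libraries. The AhR-KO HDM libraries held 0.537, 14.3, 1.36 and 2.12 CPM, so that 1 library stood above the rest. The fitted log2 fold change of Il1a, given as a description, was 4.15 ± 0.99 (SE) in AhR-KO, 1.58 ± 0.83 in WT and 2.18 ± 0.94 in CYP1B1-KO. Without the second AhR-KO HDM library the first of these was 2.36, and without the first naive WT library the WT value was 2.76. Antisense transcripts overlap 11.2% of the exon bases of Il1a, 12.0% of Csf2, 4.86% of Il1rap and 1.31% of Il1b, and whether the counting used strand is not given in the sources used here, so reads of both strands cannot be told apart there.

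Il18 (ENSMUSG00000039217, chr9:50554827-50581840, plus strand) encodes a cytokine that epithelia store as a precursor. The WT libraries held 2.68, 1.60, 1.29 and 1.66 CPM when naive and 7.62, 2.28, 8.52 and 6.41 after HDM, with the second HDM library among the naive values. The log2 fold change was 1.80 ± 0.50 (adjusted p = 0.0067, edgeR) in WT, 2.42 ± 0.59 (adjusted p = 0.00679) in AhR-KO and 1.76 ± 0.56 (adjusted p = 0.0167) in CYP1B1-KO. Without CYP1B1-KO HDM replicate 4 the last of these was 1.24 with an adjusted p of 0.0965, and without naive AhR-KO replicate 4 the AhR-KO value was 2.07 with an adjusted p of 0.0526.

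The antagonist Il1rn (ENSMUSG00000026981, chr2:24336853-24351494, plus strand) rose in each genotype. In WT it stood at 2.63, 1.42, 1.22 and 0.552 CPM in the naive and at 9.24, 3.30, 28.8 and 17.9 CPM in the HDM libraries. In AhR-KO the HDM libraries held 3.37, 15.5, 4.09 and 44.4 CPM, and in CYP1B1-KO 4.69, 8.93, 41.9 and 14.9, all above the naive libraries of 0.402 to 1.14 and 0.456 to 0.648 CPM. The log2 fold changes were 3.36 ± 0.80 (adjusted p = 0.00209), 4.59 ± 0.98 (adjusted p = 0.00335) and 4.94 ± 1.00 (adjusted p = 0.000563, edgeR).

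The receptor chains parted. Il1r1 (ENSMUSG00000026072, chr1:40225080-40317257, plus strand) fell in each genotype: the WT libraries held 24.0, 32.3, 36.4 and 57.8 CPM when naive and 12.4, 10.1, 14.9 and 15.1 after HDM. In AhR-KO Il1r1 went from 33.7, 43.1 and 47.9 to 20.9, 21.9, 15.5 and 21.2 CPM, and in CYP1B1-KO from 43.4, 44.3 and 38.1 to 11.4, 20.2, 8.56 and 22.6. No HDM library reached a naive library of its genotype. The log2 fold change was -1.51 ± 0.30 (adjusted p = 0.000326, edgeR) in WT, -1.05 ± 0.31 (adjusted p = 0.0203) in AhR-KO and -1.42 ± 0.31 (adjusted p = 0.00106) in CYP1B1-KO. In AhR-KO the call was lost without naive replicate 3 or 4 (-1.03 and -0.95, adjusted p = 0.0698 and 0.0942), without the shallow libraries (-0.91, adjusted p = 0.078) and without the libraries with Y-linked reads (-0.88, adjusted p = 0.0838). Il1rap (ENSMUSG00000022514, chr16:26581704-26730117, plus strand) did not pass the threshold of the edgeR test in any genotype: 5.98 to 9.41 CPM in naive WT stood against 8.12 to 19.2 after HDM (0.82 ± 0.38, adjusted p = 0.0918, edgeR). In WT it passed with DESeq2 (0.86, adjusted p = 0.042), voom (0.91, adjusted p = 0.00567), all genes kept, the compared groups only, without the second HDM library (1.04, adjusted p = 0.0317) and without the shallow libraries (0.85, adjusted p = 0.031). In CYP1B1-KO it passed with DESeq2 (0.94, adjusted p = 0.0449), upper-quartile scaling (0.93, adjusted p = 0.044), without HDM replicate 1 or 2 (1.12 and 1.22) and without the shallow libraries (1.19, adjusted p = 0.0141).

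Il1rl1 (ENSMUSG00000026069, chr1:40429570-40465415, plus strand), the receptor of IL-33, was low in all naive libraries, at 0.736 to 2.53 CPM. After HDM it reached 7.44, 8.63, 32.4 and 26.7 CPM in WT, a log2 fold change of 3.41 ± 0.61 (adjusted p = 0.000131, edgeR). In CYP1B1-KO it reached 5.59, 3.17, 12.4 and 36.0 CPM (3.27 ± 0.68, adjusted p = 0.000689). In AhR-KO it remained at 3.51, 3.26, 2.27 and 2.12 CPM, against 1.92, 1.90 and 2.34 when naive (0.50 ± 0.65, adjusted p = 0.631). The difference between the HDM effects of AhR-KO and WT was -2.91 ± 0.86 for Il1rl1 (adjusted p = 0.149, edgeR), which did not pass the threshold; 0.0% of all genes passed in this interaction, with 3050 of 16639 under 0.05 before adjustment. DESeq2, voom with sample weights and a fit of the compared groups only called Il1rl1 in it, among 1236, 5042 and 1001 genes called by each. In the interaction of CYP1B1-KO and HDM, no member and 0.0% of all genes passed (382 under 0.05 before adjustment), and the first member by p was Il1rn (1.58 ± 1.18, adjusted p = 1, edgeR).

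**Figure D2:**
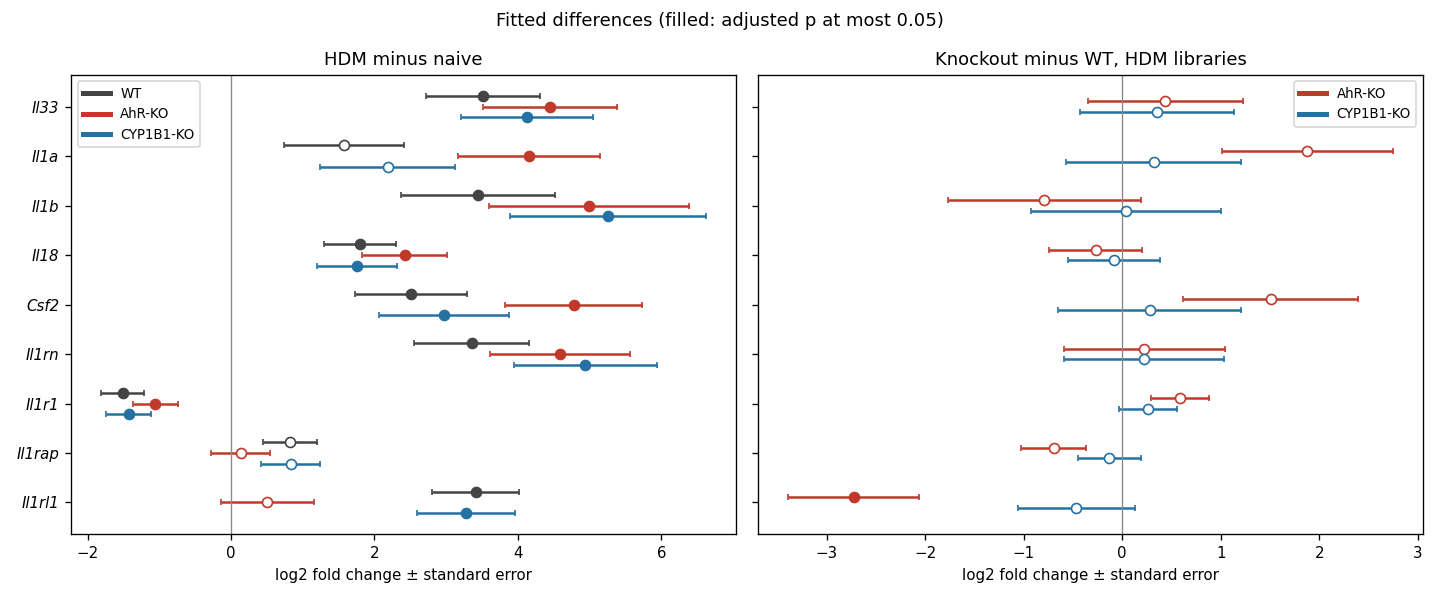
Log2 fold change (x axis) with its standard error (bars) for the 9 genes that passed the filter, HDM minus naive in each genotype (left) and each knockout minus WT after HDM (right); filled circles have an adjusted p of at most 0.05 by edgeR, and the circles of Csf2 and Il1a on the left are descriptions, as both passed the filter through their HDM libraries. On the left Il1r1 alone lies below 0 in all 3 genotypes, and on the right the filled circle is Il1rl1 in AhR-KO at -2.73.

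AhR-KO was then compared to WT, to ask whether loss of the AhR changes the alarmins of ECs. After HDM, 1 of the 9 genes tested passed the threshold, Il1rl1, where 22.1% of all genes were called. Il1rl1 was 2.79 ± 0.697 CPM in AhR-KO and 18.8 ± 12.7 in WT (SD, n = 4 each), without overlap, a log2 fold change of -2.73 ± 0.66 (adjusted p = 0.0261, edgeR). Non-overlap in either direction was found for 16.8% of all genes. The libraries of Il1r1 did not overlap either, with the AhR-KO libraries higher (19.9 ± 2.97 against 13.1 ± 2.35 CPM), and the fitted difference of 0.58 ± 0.30 did not pass (adjusted p = 0.163). The call of Il1rl1 was lost without AhR-KO replicate 1, 3 or 4 or WT replicate 3 or 4, with log2 fold changes of -2.36 to -3.03 over all 8 such omissions and adjusted p-values of up to 0.0921. Without the AhR-KO libraries with Y-linked reads it was -2.53 (adjusted p = 0.202), a fit in which 0 genes were called and 3126 had an unadjusted p under 0.05, and without the shallow libraries it was -2.61 (adjusted p = 0.0481).

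No ligand passed the threshold between AhR-KO and WT after HDM. On simulated data this fit called 5% of genes given a log2 change of 1 and 40.9% of those given 2. The fitted log2 differences, AhR-KO minus WT, were 0.44 ± 0.78 for Il33 (adjusted p = 0.729, edgeR), 1.88 ± 0.87 for Il1a (adjusted p = 0.129) and -0.79 ± 0.98 for Il1b (adjusted p = 0.595). The value of Il33 turned to -1.32 under voom (adjusted p = 0.0802) and to -0.31 without AhR-KO replicate 1. Those of Il18, Csf2 and Il1rn were -0.27 ± 0.47, 1.51 ± 0.89 and 0.22 ± 0.82 (adjusted p = 0.724, 0.228 and 0.877). Il1rap was -0.70 ± 0.33 (adjusted p = 0.139). The second AhR-KO library held 14.3 CPM of Il1a and 43.2 of Il1b, and the others 0.537 to 2.12 and 0.530 to 8.38. The WT libraries held 0.507 to 1.99 CPM of Il1a and 5.58 to 39.3 of Il1b, so both fitted values depend on 1 AhR-KO library. Without the shallow libraries, where 12.3% of all genes were called, Csf2 passed the threshold beside Il1rl1 (2.56, adjusted p = 0.0455, edgeR), with both remaining AhR-KO libraries at 13.2 and 12.3 CPM above every WT library.

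At steady state, none of the 7 genes tested passed the threshold between AhR-KO and WT, where 0.0% of all genes were called and 263 of 15547 had an unadjusted p under 0.05 in edgeR; 13 were called by DESeq2. Il1b came first among them by p (-2.48 ± 1.09, adjusted p = 1, edgeR), with 0.439 ± 0.400 CPM in AhR-KO (SD, n = 3) and 2.37 ± 2.68 in WT (n = 4). The differences of Il33 (-0.52 ± 0.57), Il18 (-0.96 ± 0.47) and Il1rn (-1.10 ± 0.56) had adjusted p-values of 1 as well, and those of Il1r1, Il1rap and Il1rl1 were 0.13, -0.08 and 0.16. Il1rl1 was thus at 2.05 ± 0.249 CPM in naive AhR-KO and at 1.77 ± 0.824 in naive WT. For Il1b, naive WT replicate 1 held 6.21 CPM and the other naive WT libraries 0.230 to 2.16.

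CYP1B1-KO was compared to WT in the same way, as the study proposes that CYP1 enzymes modulate how much AhR ligand is available. No member passed the threshold in either state, where 0.0129% of all genes were called at steady state (901 at an unadjusted p under 0.05) and 0.0% after HDM (233 in edgeR, with 1 gene called by DESeq2). After HDM, Il33 was at 216 ± 112 CPM in CYP1B1-KO and 187 ± 110 in WT (0.36 on the log2 scale), and Il1rl1 at 14.3 ± 15.0 against 18.8 ± 12.7 (-0.47). The log2 differences of Il1a, Il1b, Il18 and Il1rn were 0.32, 0.04, -0.08 and 0.22, and those of Il1r1, Il1rap and Csf2 were 0.26, -0.13 and 0.28, all with an adjusted p of 0.999 in edgeR. At steady state Il1rn came first by p (-1.41 ± 0.58, adjusted p = 0.822, edgeR), with 0.581 ± 0.108 CPM in CYP1B1-KO and 1.45 ± 0.864 in WT. Il1b was -1.87 ± 1.04, and Il33, Il18, Il1r1, Il1rap and Il1rl1 were -0.53, -0.11, 0.11, -0.23 and -0.30. Between both knockouts, no member passed at steady state (0.00643% of all genes called) or after HDM (0.00706%), and the lowest p after HDM was that of Il1rl1, at -2.26 ± 0.66 in AhR-KO minus CYP1B1-KO (adjusted p = 0.064, edgeR). In that comparison 1 gene was called and 4234 were under 0.05 before adjustment, and the likelihood ratio test, DESeq2 and voom called 2458, 2906 and 4303 genes, Il1rl1 among those of the first and second tool (adjusted p = 0.0117 and 0.00838).

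Genes of other cell types moved with these comparisons. The 7 pan-hematopoietic markers (Ptprc, which encodes CD45, Cd52, Laptm5, Coro1a, Tyrobp, Fcer1g and Cd53) summed to 4.51 to 161 CPM in the naive WT libraries and 1115 to 3562 after HDM, although the gate takes CD45- cells. All 7 were called higher after HDM in each genotype, and none was at 0 throughout a group. After HDM, their sums were 97.2 to 680 CPM in AhR-KO and 137 to 3473 in CYP1B1-KO, and 3 of 7 (Coro1a, Tyrobp and Laptm5) were called lower in AhR-KO than in WT. When naive, the sums were 8.43 to 23.9 CPM in AhR-KO and 7.40 to 27.2 in CYP1B1-KO. The naive WT library at 161 CPM also held the most Il1b (6.21 CPM) and Il1rn (2.63 CPM) of all naive libraries. The alveolar type 2 markers (7 genes, among them Sftpc) summed to 2305 to 5289 CPM in naive WT and 4299 to 24326 in WT after HDM, with 7539 to 71719 in AhR-KO and 5764 to 38550 in CYP1B1-KO. The alveolar type 1 markers (6 genes) summed to 17507 to 21312 CPM in naive WT and 609 to 4403 in WT after HDM, and in AhR-KO to 19263 to 21636 and 3382 to 18241. After HDM, the 4 ciliated cell markers summed to 122 to 183 CPM in AhR-KO and 51.6 to 114 in WT, without overlap, and 2 of them (Dynlrb2 and Ccdc153) were called higher in AhR-KO. The 3 club cell markers summed to 1625 to 7873 CPM in AhR-KO and 192 to 1725 in WT, and 1 of them, Cyp2f2, was called higher. In the same comparison 1 marker each of the pan-epithelial (Krt18) and alveolar type 1 lists (Cldn18) was called higher, and 1 each of the macrophage (Itgax), neutrophil (Cxcr2) and T cell lists (Cd8a) lower. In bulk RNA, fewer cells of a type and less RNA per cell cannot be told apart. The part of these markers in the differences above was not tested.

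**Figure D3:**
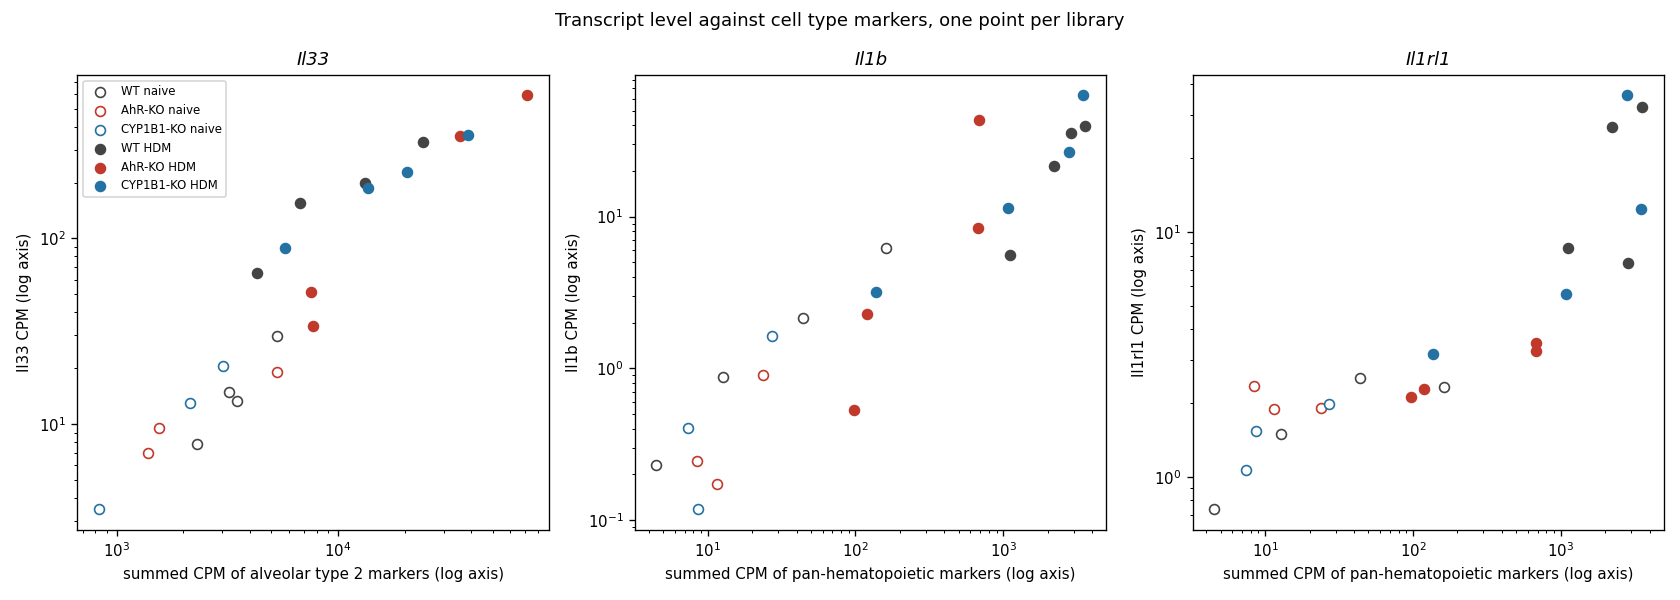
CPM of Il33 against the summed CPM of 7 alveolar type 2 markers, and of Il1b and Il1rl1 against that of 7 pan-hematopoietic markers (all axes log), 1 point per library, 22 libraries. Il33 rises with the alveolar type 2 sum in both states, and the 4 AhR-KO HDM libraries lie at 2.12 to 3.51 CPM of Il1rl1 and at 97.2 to 680 CPM of the hematopoietic sum, where the WT HDM libraries lie at 1115 to 3562.

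After the group mean was taken from each log2 CPM, Il33 had a correlation of 0.951 with the alveolar type 2 sum over the 22 libraries, and Csf2 one of 0.757; Il33 and Csf2 had 0.777 with each other. Il1b had 0.895 with the pan-hematopoietic sum, and Il1rl1 0.698. Il1rl1 also had 0.669 with the mast cell and 0.639 with the macrophage markers, and Csf2 0.665 with the T cell markers. The mast cell sum in WT after HDM was mostly Kit (71.2 CPM), and the macrophage sum in naive WT mostly Csf1r (227 CPM). Csf1r was at 126 CPM in WT after HDM, while Cd68 went from 2.14 to 44.3 CPM, so neither sum stands for its cell type alone. The correlations share library and depth and are given without a test. The genes most like Il33 by this measure, out of 16639, were Sftpa1 (0.972), Cd36 (0.958), Cxcl15 (0.957), Chil1 (0.955) and C6 (0.953), of which Sftpa1 encodes a surfactant protein of type 2 cells. For Il1b they were Ncf1 (0.953), Vsir (0.944), Pik3ap1 (0.938), Sirpa (0.923) and Coro1a (0.922), of which Ncf1 encodes a subunit of the phagocyte NADPH oxidase. Il18 had weaker partners, led by Trf (0.855), Capg (0.833) and Tlr4 (0.827).

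Il1rl1 is also a receptor of mast cells and innate lymphoid cells, so their markers were read beside it. Kit, which encodes the stem cell factor receptor, was at 71.2 ± 24.6 CPM in the WT and 8.39 ± 11.3 in the AhR-KO HDM libraries (SD, n = 4 each; log2 fold change -3.02, adjusted p = 0.0396, edgeR), the 1 of 5 mast cell markers that could be tested in this comparison. The others had at most 44 counts in any library: Cpa3 was at 0.481 CPM in AhR-KO and 0.443 in WT, Cma1 at 0.363 and 0.360, Fcer1a at 0.160 and 0.528, and Ms4a2 at 0.515 and 0.617. The 3 ILC2 markers Gata3, Rora and Il7r summed to 40.0 to 70.8 CPM in WT and 42.8 to 75.6 in AhR-KO after HDM. Of these, 1 gene, Il7r, was lower in AhR-KO (9.69 ± 7.79 against 33.7 ± 8.87 CPM, log2 fold change -1.75, adjusted p = 0.0486, edgeR). Gata3 was at 1.94 CPM in AhR-KO and 2.47 in WT, so the AhR-KO sums were mostly Rora and do not follow Il7r. Similar sums therefore do not show similar ILC2 RNA. Il4, Il5, Il9 and Il13, cytokines of the cells that respond to IL-33, had at most 21 counts in any library. Areg, the 1 gene of this list that could be tested, was at 8.27 ± 9.63 CPM in AhR-KO and 5.62 ± 2.56 in WT after HDM (SD, n = 4 each; log2 fold change 0.62, adjusted p = 0.581, edgeR). Against naive libraries Areg was 1.96 in AhR-KO (adjusted p = 0.0458), 1.33 in WT (adjusted p = 0.0941) and 1.71 in CYP1B1-KO (adjusted p = 0.0599), and the differences of these effects from that of WT did not pass (0.63 and 0.38, adjusted p = 0.784 and 1).

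To read the transcripts relative to these markers, Il33 and Csf2 were divided by the alveolar type 2 sum and Il1b and Il1rl1 by the pan-hematopoietic sum, per library. These 4 ratios over 5 comparisons, 20 exact permutation tests, were chosen after the data were seen. Per 1000 CPM of type 2 markers, Il33 was 3.37 to 5.61 CPM in naive WT, and 13.6, 15.1, 23.0 and 15.1 in WT after HDM (p = 0.0286, the smallest possible with 4 against 4 libraries in a two-sided exact permutation test; 0.143 after Benjamini-Hochberg adjustment). In AhR-KO after HDM the ratio was 8.21, 9.94, 4.36 and 6.80, all 4 below WT (7.33 ± 2.36 against 16.7 ± 4.27; exact p = 0.0286, adjusted 0.143), and overlapping the naive AhR-KO ratios of 3.60 to 6.12 (exact p = 0.171). With Sftpc left out of the markers, the AhR-KO HDM libraries lay above the naive ones (21.9 ± 4.56 against 13.3 ± 2.81; exact p = 0.0571), and AhR-KO and WT after HDM overlapped (21.9 ± 4.56 against 32.7 ± 7.51; exact p = 0.0571). In CYP1B1-KO after HDM the ratio was 11.1, 9.31, 15.5 and 13.8 (exact p = 0.2 against WT). Csf2 per 1000 CPM of type 2 markers was 0.199 in both AhR-KO and WT after HDM (exact p = 0.971), and without Sftpc 0.552 in AhR-KO and 0.403 in WT (exact p = 0.286).

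Per 1000 CPM of pan-hematopoietic markers, Il1rl1 was 2.61, 7.74, 9.10 and 12.0 CPM in WT after HDM and 5.17, 4.80, 19.0 and 21.8 in AhR-KO (7.87 ± 3.94 against 12.7 ± 8.99, exact p = 0.371), so that the groups overlapped on this scale. The ratios of 19.0 and 21.8 rest on 5 and 12 counts of Il1rl1, in AhR-KO replicates 3 and 4, shallow libraries with Y-linked reads. In WT the ratio of Il1rl1 went from 87.9 ± 65.3 when naive to 7.87 ± 3.94 after HDM (exact p = 0.0286, adjusted 0.143), the reverse of its CPM; with Ptprc alone as the divisor the groups overlapped (exact p = 0.0857). Il1b fell on this scale in WT as well, from 51.9 ± 12.5 to 9.56 ± 3.25 (exact p = 0.0286, adjusted 0.143). Its HDM and naive ratios overlapped in AhR-KO (25.1 against 27.2, exact p = 0.914) and in CYP1B1-KO (15.3 against 42.8, exact p = 0.171). In AhR-KO after HDM the ratio of Il1b was 12.3, 63.5, 19.0 and 5.45 (exact p = 0.229 against WT), with a mean of 25.1, and of 12.3 without the second library, which stood above the rest. With 4 against 3 libraries the smallest possible p was 0.0571.

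**Figure D4:**
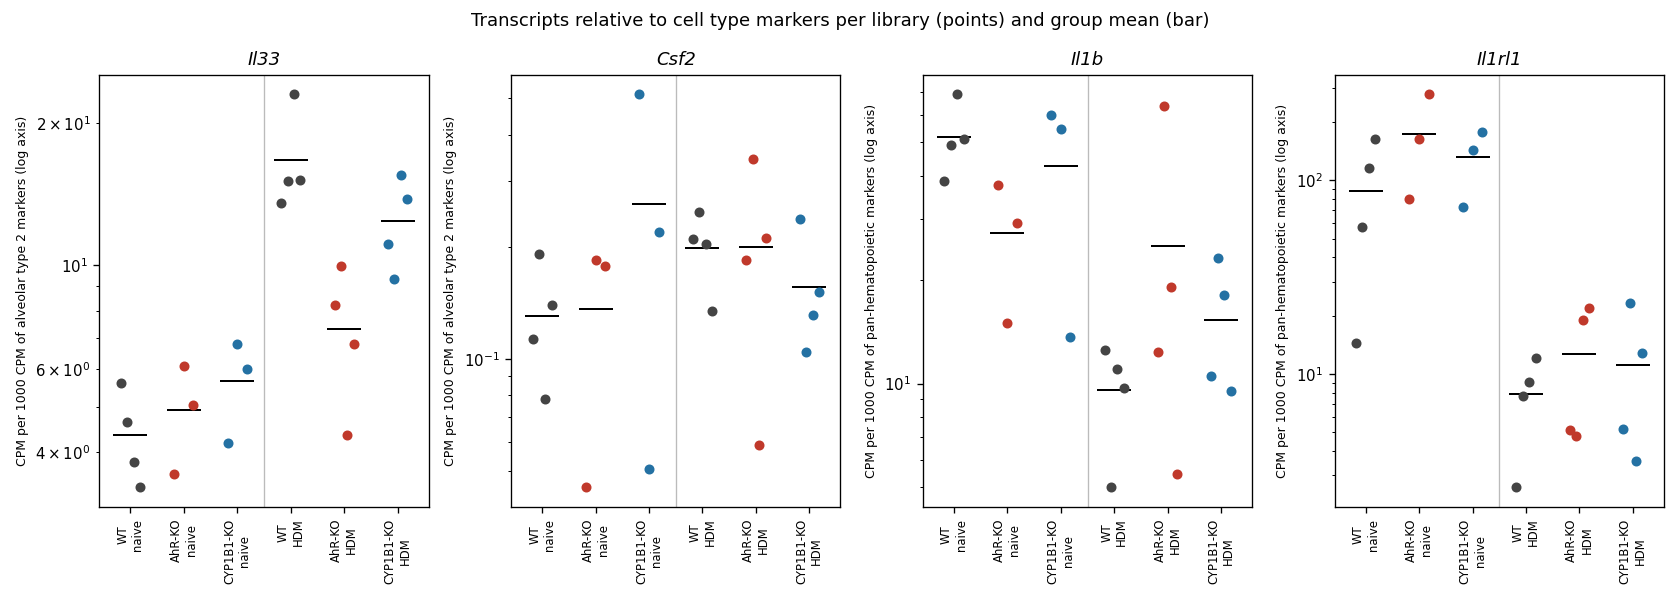
CPM per 1000 CPM of the summed alveolar type 2 markers (Il33, Csf2) or pan-hematopoietic markers (Il1b, Il1rl1), log axes, in each library (points) with the group mean (bars). The 4 AhR-KO HDM libraries of Il33 (4.36 to 9.94) lie below the 4 WT HDM libraries (13.6 to 23.0), and those of Il1rl1 (4.80 to 21.8) overlap WT (2.61 to 12.0).

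The wider pathway was read from lists of receptors, processing genes, signalling genes, other alarmins, other IL-1 family ligands and type 2 cytokines. For HDM against naive libraries, only genes that passed the filter within each table were counted. In WT, 8 of the 10 such receptors were higher and 1 was lower after HDM. Among the higher ones were Csf2rb (5.46) and Crlf2 (4.69), which encode chains of the GM-CSF family and TSLP receptors, and Il18rap (3.86), a chain of the IL-18 receptor, and the lower one was Il18r1 (-2.09). Csf2rb2, another chain of that family (5.34), passed the filter through its HDM libraries and was not counted. Of 12 processing and release genes, 11 were higher and 0 lower, among them the inflammasome genes Nlrp1b (5.12), Aim2 (4.14) and Pycard (2.89). Of 12 signalling genes 4 were higher and 1 lower, of 5 other alarmins 1 was higher (Hspa1a) and 1 lower (Anxa1), and of 2 other ligands and antagonists 1 was higher, Il18bp, which encodes a decoy of IL-18 (1.28 ± 0.34, adjusted p = 0.00484, edgeR). In AhR-KO the counts higher were 4 of 10 receptors and 3 of 12 processing genes, and in CYP1B1-KO 7 of 10 and 10 of 12, where 38.4%, 20.6% and 33.4% of all genes were called in either direction in WT, AhR-KO and CYP1B1-KO. The 5 of 12 signalling genes called in WT, and the 3 of 12 processing genes in AhR-KO, are near those shares. The hematopoietic markers above moved with these lists.

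Between AhR-KO and WT after HDM, 9 of the 12 further receptors were lower and 1 higher, against 22.1% of all genes called in either direction. The lower ones included Crlf2 (-2.83 ± 0.66, adjusted p = 0.0261), Csf2rb2 (-2.65 ± 0.67, adjusted p = 0.0273) and Csf2ra (-2.66 ± 0.70, adjusted p = 0.0285, edgeR), and the higher one was Il18r1, with 137 ± 37.5 CPM in AhR-KO and 54.6 ± 21.7 in WT. Of the processing and release genes 7 of 15 were lower and 0 higher (median -1.42), among them Nlrp1b (-2.70 ± 0.60, adjusted p = 0.0261, edgeR) and Gsdmd (-1.49 ± 0.37, adjusted p = 0.0267), which encodes the pore that releases IL-1β. Of 12 signalling genes 3 were lower (Irak4, Myd88 and Tab1), and of 6 other alarmins 1 was higher, Anxa1 (1.19 ± 0.40, adjusted p = 0.0475). Without the shallow libraries 5 receptors and 7 processing genes were lower, where 12.3% of all genes were called, and without the libraries with Y-linked reads none was called. Over all genes, the 3129 called fell to 0 without AhR-KO replicate 1, 3 or 4 or WT replicate 3 or 4 and to 885 without WT replicate 1, whereas 4148 to 4987 genes had an unadjusted p under 0.05 in these 6 fits, against 5492 with all libraries. In the same comparison the pan-hematopoietic sum was 97.2 to 680 CPM in AhR-KO and 1115 to 3562 in WT, and its part in these counts was not tested. In CYP1B1-KO against WT, and in AhR-KO against WT at steady state, 0 genes of any of these lists were called.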

How the data were processed

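Per the labels and the methods, the authors trimmed reads with bbduk, aligned them to mm10 (GRCm38) using GSNAP and assigned them to genes using featureCounts 2.0.0, after demultiplexing with bcl2fastq 2.19.1. The deposited values are raw counts per gene, 1 table for the naive and 1 for the HDM libraries; whether strand was used is not given in the sources used here. Ensembl identifiers were looked up in GENCODE M21 (54147 of 54373 found), and the 21793 protein-coding genes were kept. Samples were grouped by genotype and state from the labels. No 2 libraries held the same counts.

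Counts were tested in R 4.3.3 with edgeR 4.0.16 (glmQLFit with robust estimation, glmQLFTest) after filterByExpr (minimum count 10, minimum total count 15) and TMM, with Benjamini-Hochberg adjustment over all genes tested and a threshold of 0.05. Genotypes were compared within a table, in 1 fit of its 3 genotypes; HDM against naive and the interactions were fitted over all 22 libraries. The standard error is the log2 fold change divided by the root of the F statistic. CPM use TMM over both tables, and log2 CPM a prior count of 1. The median of all genes, HDM minus naive, was -0.11 in WT.

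The members, the pathway and marker lists and the tests were chosen with earlier results of these data known. All members are named; other genes are named as the 4 pathway genes of lowest p past the threshold in a comparison, as the 5 most like Il33, Il1b or Il18, or as markers. Pathway genes named beyond these, Kit and the ratios were singled out after their values were seen. Ratios used exact permutation tests. Alternatives were the likelihood ratio test, DESeq2 1.42.0, voom of limma 3.58.1 with sample weights, RLE and upper-quartile normalization, no filter, all genes, no dominant predicted genes (at least 1% of a library), no robust estimation, the compared groups only, the replicate number as a block and each library left out; leaving out the 5 shallow libraries (under 3e+06 protein-coding counts outside dominant predicted genes) or the 2 HDM libraries with Y-linked reads was chosen after seeing the data. The fits were tested on simulated data. Between AhR-KO and WT after HDM, 5% of genes given a log2 change of 1 in either direction were called, and 40.9% of those given 2. For HDM against naive libraries in WT the shares were 6.06% and 53%. A member that did not pass may therefore still differ.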

Additional observations from a re-analysis of the deposited data

Results flagged for a closer look

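Il1r1 in the AhR-KO HDM libraries held 1 value far from the others. AhR-KO replicate 3 stood at 3.958 on the log2 CPM scale, and the other 3 libraries of its group at 4.392 to 4.457, so that the gap took 0.869 of the range of the group. Of 36 sets of 4 libraries examined in this way 1 was found, and chance gives about 1.8. The library is 1 of the 5 shallow ones and 1 of the 2 HDM libraries of its genotype with Y-linked reads; the part of either in this value was not tested.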

How the results depend on the processing

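Directions and calls were recomputed under 11 other settings of the fit, without each library and without the doubted libraries. Of the fold changes against WT, and of HDM minus naive in WT, under other settings, 357 uncalled and 89 called ones kept direction and side of the threshold, 7 gained and 2 lost the threshold, and 20 turned, all of them uncalled. Over all comparisons, 17 calls of members were gained and 5 lost under other settings, and 4 gained and 12 lost without single libraries. Csf2 and Il1a in HDM against naive, which are descriptions, are left out of these counts. Group means under RLE scaling moved by less than their SD in 60 of 60 cases. Between AhR-KO and WT after HDM, the number of members called went from 1 to 2 under voom (Il1rap and Il1rl1, with 6669 of 14161 genes called), to 2 without the 5 shallow libraries (Il1rl1 and Csf2, with 1948 of 15902 genes called), to 0 without the 2 libraries with Y-linked reads, and to 0 to 1 without single libraries. Between AhR-KO and CYP1B1-KO after HDM it went from 0 to 1 under the likelihood ratio test and DESeq2 (Il1rl1), voom (Il33, which turned from 0.08 to -1.99, adjusted p = 0.0409) and without the shallow libraries (Csf2, with 1339 of 15902 genes called), and to 0 to 1 without single libraries. In the interaction of AhR-KO and HDM it went from 0 to 1 under DESeq2, voom and the compared groups only. For HDM against naive, over the 7 genes that passed within each table, it was 5 with all libraries and 2 to 5 without single ones in AhR-KO (8.93% of all genes called without naive replicate 4, where it was 2), and 6 to 7 in WT and 5 to 7 in CYP1B1-KO. With Csf2 and Il1a, whose calls there carry no weight, the AhR-KO range was 4 to 7.

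Replicate numbers did not pair the libraries: same-numbered libraries deviated with correlations of -0.56 to 0.75 in the HDM and -0.03 to 0.23 in the naive table, with 4 of 12 and 4 of 8 pairs over 0.1. With the replicate number as a block, 0 members were called between AhR-KO and WT after HDM (Il1rl1 -2.24, adjusted p = 0.058 by edgeR), and 1 gene of all. Under the replicate block the log2 difference was -0.16 for Il33 in AhR-KO and -0.0886 for Il1b in CYP1B1-KO after HDM, and 0.12 for Il18 in naive CYP1B1-KO, each of the other sign than without it.

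Other differences from WT that turned were these. Under voom they were -0.0526 for Il1rl1 in naive AhR-KO, 0.18 for Il18 and 0.0112 for Il1rap in naive CYP1B1-KO, -1.32 for Il33 (adjusted p = 0.0802) and -0.25 for Il1rn in AhR-KO after HDM, and -0.39 for Il1b and -0.36 for Il1rn in CYP1B1-KO after HDM. Without a filter Il18 was 0.0247 in CYP1B1-KO after HDM. Without the shallow libraries, Il1rn was -0.86 in AhR-KO, and in CYP1B1-KO Il33 was -0.39, Il18 0.18, Il1rap 0.17, Il1rl1 0.0433 and Csf2 -0.81. Without the libraries with Y-linked reads, Il1b was 0.0132, Il18 0.0556 and Il1rn -0.70 in AhR-KO. With Ptprc alone as divisor, the ratio of Il1b, HDM minus naive in AhR-KO, was 73.9. The cause was not tested.

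Without single libraries, differences that changed sign ran, in naive AhR-KO, from -0.226 to 0.0509 for Il1rap, -0.0107 to 0.35 for Il1r1 and -0.13 to 0.39 for Il1rl1, and in naive CYP1B1-KO from -0.33 to 0.18 for Il18, -0.50 to 0.15 for Il1rap and -0.0357 to 0.33 for Il1r1. After HDM they ran in AhR-KO from -0.31 to 0.80 for Il33 and -0.89 to 0.75 for Il1rn, and in CYP1B1-KO from -0.50 to 0.12 for Il18, -0.34 to 0.83 for Csf2, -0.0407 to 0.64 for Il33, -0.30 to 0.0776 for Il1rap, -0.77 to 0.37 for Il1b and -0.58 to 0.74 for Il1rn.

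Depth set further limits: Tslp, and Il1a and Csf2 in naive ECs, were at a few counts per library. The naive comparisons rest on 3 libraries of each knockout.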
